A study of Mus musculus with 8 samples.

Results

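Livers of mice that had been through a liver tumour protocol and then received the high dose of Diwu Yanggan capsules (DWYG), a herbal preparation, were compared with control livers. The comparison asks how far high-dose livers remained from control livers at the end of the experiment. It rests on 4 of the 8 RNA sequencing libraries of the study, 2 from control mice and 2 from the high-dose group (DWYG-H). They were taken by their group labels, and 11606 of 17164 genes were tested, those that reached an FPKM of 1 in 2 or more of the 8 libraries. FPKM is a count of fragments scaled to the length of the gene and the depth of the library.

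The mice were male C57BL/6, 24 in all in 4 groups of 6, and each library came from 1 of 2 livers picked at random from its group. DWYG-H mice were injected in the abdomen with diethylnitrosamine (DEN, 0.67%) when 2 weeks old, and with carbon tetrachloride (CCl4, at 20% in olive oil) again and again between 8 weeks and their death at 22 weeks. From 17 weeks they also received DWYG at 2 multiples of the clinical equivalent dose, so the capsules overlapped with continuing CCl4. Control mice received saline at the time of the DEN injection and were killed at the same age, and olive oil or CCl4 is not named for them. Model mice received DEN and CCl4 without DWYG, and medium-dose mice (DWYG-M) received DWYG at 1 multiple of the clinical dose. A difference between DWYG-H and control therefore joins the effects of DEN, CCl4 and DWYG, which this comparison cannot tell apart. The libraries are from whole tissue, in which fewer cells of a type and less RNA per cell cannot be told apart.

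DEN is turned into a DNA-alkylating agent by cytochrome P450 enzymes and starts tumours in the growing liver of young male mice. CCl4 is activated by the same family of enzymes in hepatocytes around the central vein, kills them, and on repeated dosing leads to scarring. Livers under both agents hold a mixture of dividing and dedifferentiated hepatocytes, macrophages that clear lipid and debris, activated stellate cells that lay down collagen, and spreading bile duct cells. Male hepatocytes carry a further programme, set by pulses of growth hormone, that is readily lost in injury and in tumours.

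Library depth lay between 17345627 and 19191382 estimated reads, and replicates correlated across genes at 0.984 in control and 0.978 in DWYG-H (Pearson's r of log2 CPM, counts scaled to depth). On the first principal component, which held 69.7% of the variance over 8 libraries, the controls lay at -69.86 and -76.26, the DWYG-H livers at 22.86 and 15.16, and the model livers at 34.22 and 52.97. Major urinary protein (Mup) genes took 15.3% and 15.4% of reads in control and 2.06% and 2.30% in DWYG-H. The hepatocyte marker Alb, albumin, stood at 38637 and 29953 FPKM in control and 54658 and 44679 in DWYG-H. Its log2 fold change in edgeR was 0.33 (adjusted p = 0.708). Of 39 tested hepatocyte secretory and identity genes 1 rose and 1 fell at an adjusted p under 0.05 (5.13%, beside 7.69% of all genes tested). These were Apoc2, an apolipoprotein, and Foxa1, a transcription factor (log2 fold changes 2.34 and -0.85). In FPKM 18 of the 39 lay higher in DWYG-H without overlap and 7 lower, with transcription factors of hepatocyte identity in both sets. Over all genes tested, 57.2% did not overlap in either direction.

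In DWYG-H against control, 892 genes changed at an adjusted p under 0.05, which is 7.69% of those tested. Of these, 765 were higher in DWYG-H (6.59% of genes tested) and 127 were lower (1.09%), so that 85.8% of the changes were increases. The increases reached at least 2-fold for 681 genes and at least 8-fold for 203, and the decreases for 86 and 27 genes. The median log2 fold change over all genes was -0.01. On the deposited TPM scale, whose median over all genes lay 0.41 higher, limma called 3369 genes, 98.0% of them higher. The number of calls fell to 151 without control 1, to 77 without control 2, to 323 without DWYG-H 1 and to 423 without DWYG-H 2. All 892 kept their direction in these 4 fits, 71 genes (49 higher, 22 lower) stayed called in each of them, and 420 were called in none. A gene called in all 4 fits passed in each of the fits that leave out 1 library. The livers came from separate mice. The p-values rest on the spread between replicates in all 4 groups over 8 libraries, moderated across genes, and not on the 4 compared livers alone. With the 2 groups alone edgeR called 1169 genes.

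**Figure D1:**
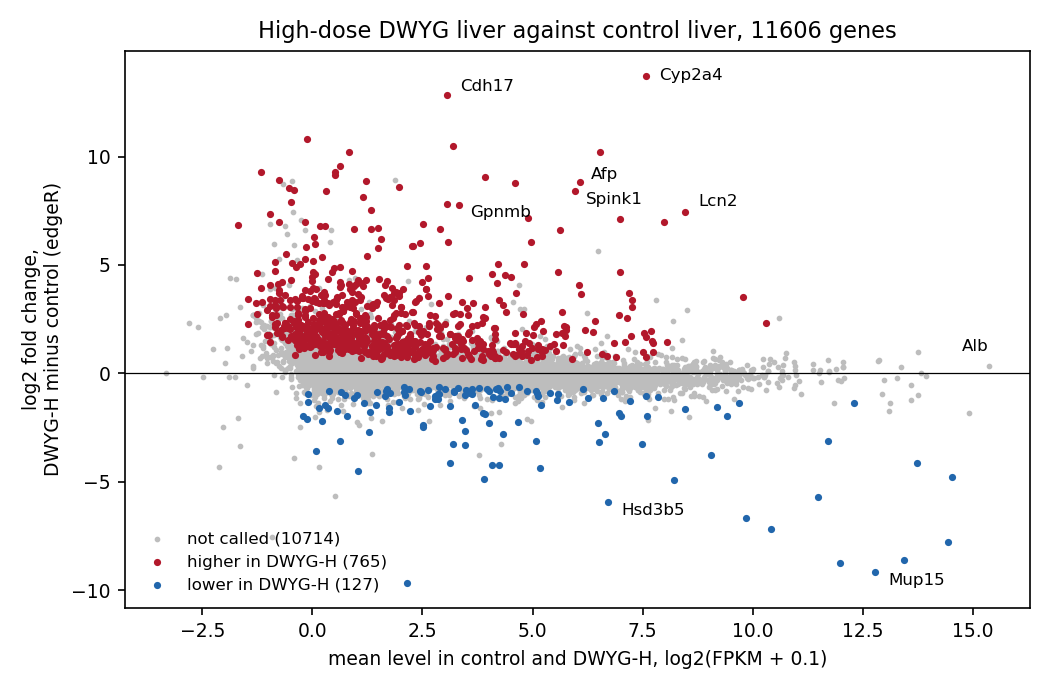
Each point is 1 of 11606 genes, by its mean level in the 4 libraries (x axis, log2 of FPKM + 0.1) and its log2 fold change in DWYG-H against control (y axis). Red points are the 765 genes called higher and blue points the 127 called lower; the lower genes of high level on the right are mostly Mup genes.

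The 3 genes given as markers of this state, Gpnmb, Lcn2 and Spink1, were higher in high-dose livers. Gpnmb, a glycoprotein of lipid-loaded macrophages, stood at 0.11 and 0.05 FPKM in the control livers and at 19.86 and 19.68 FPKM in the DWYG-H livers. Lcn2, lipocalin 2, an iron-siderophore binding protein released by stressed hepatocytes and neutrophils, stood at 4.62 and 2.52 FPKM in control and 959.45 and 446.18 FPKM in DWYG-H. Spink1, a trypsin inhibitor made in liver tumours, was listed at 0 and 0.53 FPKM in control and at 189.52 and 57.71 FPKM in DWYG-H. Both DWYG-H livers lay above both control livers for each of the 3 genes, and Spink1 differed most between the DWYG-H livers. The log2 fold change was 7.78 (SE 0.44, adjusted p = 5.3e-04) for Gpnmb and 7.42 (SE 0.55, adjusted p = 0.00123) for Lcn2, and both were called in all 4 fits. Spink1 rested on 1 read in control and 471 in DWYG-H, a ratio of 465 with a 95% counting interval of 83.1 to 18420. Its adjusted p was 0.004, and 0.0542 without control 2. In the model livers the same genes stood at 19.76 and 29.36 FPKM (Gpnmb), 1329.45 and 1573.65 (Lcn2) and 170.53 and 160.04 (Spink1).

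**Figure D2:**
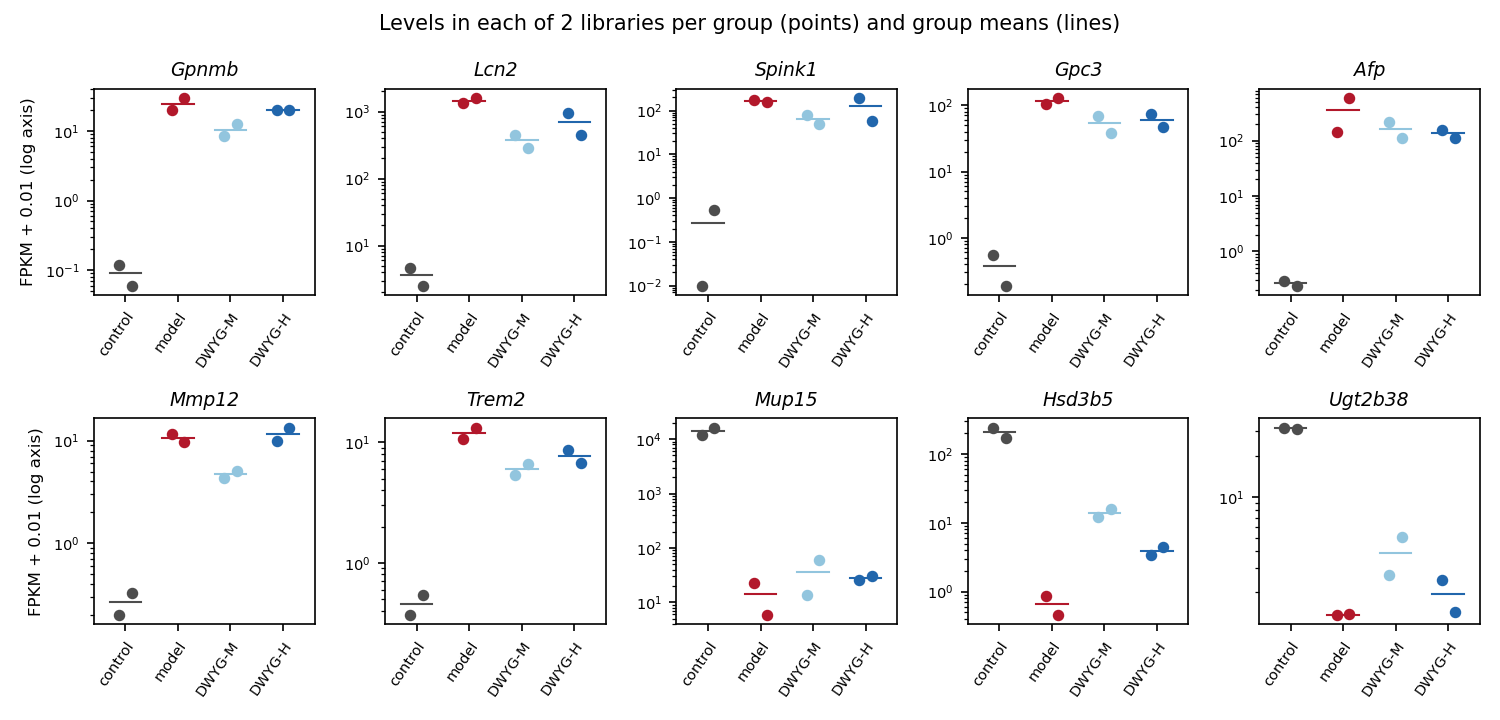
Levels of 10 genes in each library (FPKM + 0.01, log axis), with 2 points per group and a line at the group mean. The first 7 genes are low in both control livers and high in both DWYG-H livers, and Mup15, Hsd3b5 and Ugt2b38 are high in control and low in DWYG-H.

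Markers of fetal liver and liver tumours were mostly higher in high-dose livers. Of 23 tested oncofetal and tumour markers 20 rose and 0 fell (87.0%), with a median log2 fold change of 4.66, or 4.55 with genes unread in control set at their lower bound and 4.02 without DWYG-H 2. The list was written with earlier results of these data known. It holds the given markers Lcn2 and Spink1, and Cdh17, Akr1c18 and Sprr1a, described below. Not all members were silent in control, where the list summed to 73.2 and 81.8 FPKM. Of the 20, 10 were called in all 4 fits. Afp, the alpha-fetoprotein of fetal liver, stood at 0.28 and 0.23 FPKM in control and 157.52 and 111.4 FPKM in DWYG-H, a log2 fold change of 8.81 (SE 0.95, adjusted p = 0.00325, and 0.0542 without control 2). Gpc3, a surface proteoglycan used as a marker of hepatocellular carcinoma, stood at 0.54 and 0.18 FPKM against 72.47 and 46.57 (log2 fold change 7.15, SE 0.53). Tspan8, a tetraspanin, stood at 1.09 and 0.72 FPKM against 119.8 and 76.52 (log2 fold change 6.61, SE 0.46). The adjusted p was 0.00123 for both Gpc3 and Tspan8, and both were called in all 4 fits. DWYG-H 1 was the higher of the 2 treated livers for each of these 3 genes, and neither treated liver came near a control.

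Some genes had almost no reads in control liver. Cdh17, an intestinal cadherin, had 0 reads in control and 1822 in DWYG-H (20.0 and 12.82 FPKM), at least 600-fold higher against a floor of 3 reads over the control group, and was called in all 4 fits. Csn3, kappa-casein, had 0 and 354 reads, at least 117-fold higher, and its adjusted p of 0.0176 became 0.0894 without control 1, 0.107 without control 2 and 0.0629 without DWYG-H 1. Sprr1a, a cornified envelope protein induced in stressed epithelium, had 0 and 71 reads, at least 23.4-fold higher (4.26 and 4.27 FPKM in DWYG-H), and was called in all 4 fits. Akr1c18, a hydroxysteroid dehydrogenase, stood at 0.19 and 0.07 FPKM in control and 251.41 and 120.15 FPKM in DWYG-H, a log2 fold change of 10.21 (SE 0.95, adjusted p = 0.00252), also called in all 4 fits. Klrb1b, a lectin-like receptor of natural killer cells, stood at 35.34 FPKM in DWYG-H 1 and 24.51 in DWYG-H 2. Of 6 tested T and NK cell markers 0 passed, with sums of 19.3 and 60 FPKM in the same livers. Klrb1b had 3 reads in control and 2002 in DWYG-H, a ratio of 659 (225 to 3200). Its adjusted p of 0.00374 became 0.0509 without control 1 and 0.056 without control 2. Erich4 had 1 and 315 reads, a ratio of 311 (55.5 to 12332), with an adjusted p of 0.00755, and of 0.063 without control 1 and 0.077 without control 2.

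Most tested genes of scar macrophages were higher in high-dose livers, and 3 of 15 Kupffer cell genes were lower. Of 20 tested genes of lipid-associated macrophages, the cells found in scarred liver, 14 rose and 0 fell (70.0%, median log2 fold change 2.04), and their summed level went from 1426 and 1612 FPKM in control to 2949 and 2840 in DWYG-H. Trem2, a lipid-sensing receptor of these cells, stood at 0.36 and 0.53 FPKM in control and 8.63 and 6.69 FPKM in DWYG-H (log2 fold change 3.89, SE 0.39, adjusted p = 0.00252). Mmp12, macrophage elastase, stood at 0.19 and 0.32 FPKM against 9.87 and 13.39 (log2 fold change 4.95, SE 0.29, adjusted p = 5.3e-04). Both were called in all 4 fits. Spp1, osteopontin, which bile duct cells make too, stood at 38.4 and 33.71 FPKM against 228.94 and 268.26 (adjusted p = 0.003, and 0.0531 without control 2). The 15 genes of resident Kupffer cells gave 0 higher and 3 lower (20.0%), a median of -0.20 (0.26 on the TPM scale and 0.03 without DWYG-H 2), and sums of 609 and 479 FPKM in control against 592 and 546 in DWYG-H, which overlapped. The 3 that fell were Timd4, a receptor for dying cells (7.89 and 5.83 FPKM against 2.21 and 2.35), Cd163, a haemoglobin scavenger receptor (6.17 and 3.63 against 1.75 and 1.5), and the lectin Fcna (64.08 and 54.96 against 32.91 and 37.77). Their adjusted p-values were 0.0165, 0.032 and 0.0141, and each lost its call in each of the 4 fits, reaching 0.099, 0.162 and 0.0839. Clec4f, the most specific Kupffer marker, stood at 72.6 and 58.73 FPKM in control and 48.71 and 42.46 in DWYG-H (adjusted p = 0.115). C1qa, C1qb and C1qc, the chains of complement C1q, lay higher without overlap in DWYG-H and did not pass (log2 fold changes of 0.26, 0.34 and 0.32).

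Some signals that draw in blood leukocytes were higher too. Of 20 tested chemokine and cytokine genes 8 rose and 0 fell (40.0%, median 1.84, and 0.83 without DWYG-H 2). Cx3cr1, the fractalkine receptor of monocyte-derived cells, stood at 0.19 and 0.08 FPKM in control and 1.67 and 2.24 in DWYG-H (log2 fold change 3.59, SE 0.40, adjusted p = 0.00346, called in all 4 fits). Cxcl1, which attracts neutrophils, stood at 4.05 and 1.65 FPKM against 26.02 and 28.49 (log2 fold change 3.05, SE 0.44, adjusted p = 0.00832, and 0.0726 without control 2). Of 8 tested neutrophil markers 3 rose and 0 fell, with summed levels of 13.6 and 8.59 FPKM in control and 116 and 114 in DWYG-H. Pglyrp1, a peptidoglycan-binding protein of neutrophil granules, had 0 reads in control and 96 in DWYG-H, at least 31.6-fold higher (adjusted p = 0.0201). Its call was lost in each of the 4 fits, with adjusted p-values up to 0.11. S100a9, a calprotectin subunit, stood at 4.74 and 2.30 FPKM against 38.64 and 34.54 (adjusted p = 0.0427, and up to 0.244 in the 4 fits, called in 0 of them). Ngp, a granule protein, had 1 and 146 reads, a ratio of 144 (25.5 to 5736), with an adjusted p of 0.0133, and of 0.0798 without control 1 and 0.11 without control 2.

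Most tested collagen and matrix transcripts were higher in high-dose livers than in control. RNA levels do not measure the matrix laid down. Of 35 tested collagen and matrix genes 25 rose and 0 fell (71.4%, median 1.62), and the sum went from 454 and 518 FPKM in control to 898 and 976 in DWYG-H. Col3a1, a fibrillar collagen, stood at 3.68 and 4.77 FPKM in control and 23.29 and 25.8 in DWYG-H (log2 fold change 2.32, SE 0.28, adjusted p = 0.00409). Mmp2, a gelatinase made by stellate cells, stood at 0.9 and 0.84 FPKM against 6.09 and 7.94 (log2 fold change 2.80, SE 0.24, adjusted p = 0.00218). Col5a2 stood at 0.69 FPKM in both control livers against 3.09 and 3.30 (log2 fold change 2.00, SE 0.20, adjusted p = 0.00252). These 3 genes were the matrix genes called in all 4 fits. Col6a3 stood at 0.56 and 0.57 FPKM against 2.73 and 3.38 (adjusted p = 0.00346, and 0.0542 without control 2). Col1a1, the main collagen of scars, stood at 0.68 and 0.82 FPKM against 6.92 and 12.59, a log2 fold change of 3.48 (SE 0.50, adjusted p = 0.00821). Its adjusted p was 0.0724 without control 1 and 0.0741 without control 2. Timp1, which inhibits matrix-degrading enzymes, stood at 0.10 and 0.21 FPKM against 2.49 and 3.91 (adjusted p = 0.0173). It was 0.112 without control 1, 0.109 without control 2 and 0.0692 without DWYG-H 2.

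Some markers of the cells that lay down the matrix passed the test. Of 21 tested stellate cell and myofibroblast markers 4 rose and 1 fell (23.8%, median 0.27, and -0.03 without control 1). Vim, an intermediate filament protein, stood at 12.63 and 10.17 FPKM in control and 32.32 and 35.16 in DWYG-H (log2 fold change 1.36, SE 0.17, adjusted p = 0.00468, and 0.0656 without control 2). Pdgfra and Pdgfrb, the platelet-derived growth factor receptors, stood at 0.67 and 0.69 FPKM against 1.77 and 2.18, and at 1.04 and 1.19 against 2.88 and 3.73. Their adjusted p-values of 0.0173 and 0.0247 rose to at most 0.109 and 0.142 in the 4 fits, and neither was called in any of them. Acta2, the smooth muscle actin of myofibroblasts, did not pass, at 2.85 and 2.46 FPKM against 5.37 and 6.02 (log2 fold change 0.75, SE 0.36, adjusted p = 0.253). Of 23 tested genes of TGF-beta signalling, the main pathway that drives collagen synthesis, 5 rose and 0 fell (21.7%, median 0.31). Ltbp2, a latent TGF-beta binding protein, stood at 0.13 and 0.10 FPKM against 1.16 and 1.67 (log2 fold change 3.49, SE 0.38, adjusted p = 0.00337, and 0.0542 without control 2). Tgfb3, a ligand, stood at 0.36 and 0.43 FPKM against 1.66 and 1.79 (adjusted p = 0.00755, 0.0649 without control 1 and 0.0582 without control 2). Of 24 tested endothelial markers 1 rose and 0 fell (4.17%). That gene was Cd34, which liver sinusoids gain in scarring and in tumours, at 0.52 and 0.54 FPKM against 3.92 and 3.74 (log2 fold change 2.67, SE 0.23, adjusted p = 0.00218, called in all 4 fits).

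Some bile duct markers passed the test in high-dose livers. Of 16 tested cholangiocyte and ductular genes 2 rose and 0 fell (12.5%, median 0.76), Spp1 and Bicc1. Over all genes tested 7.69% were called. In FPKM, both DWYG-H values lay above both control values for 10 of the 16 and under them for 0. Over all genes tested, 57.2% did not overlap in either direction. Bicc1, an RNA-binding protein of duct epithelium, stood at 0.53 and 0.54 FPKM in control and 3.76 and 3.40 in DWYG-H (log2 fold change 2.54, SE 0.25, adjusted p = 0.00252, called in all 4 fits). Krt19, the keratin of ducts, stood at 0.37 and 1.53 FPKM in control and 1.48 and 2.03 in DWYG-H, which overlapped (adjusted p = 0.38), and at 10.1 and 8.54 in the model livers. Epcam, an epithelial adhesion molecule, stood at 0.83 and 0.93 FPKM against 1.47 and 2.45 (adjusted p = 0.13), and at 6.83 and 7.25 in the model livers.

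Genes of dividing cells were higher in high-dose livers. Of 39 tested cell cycle and mitosis genes 21 rose and 0 fell (53.8%, median 2.11). All 39 had both DWYG-H FPKM values above both control values, beside 57.2% of all genes tested whose libraries did not overlap in either direction. On log2(FPKM + 1) the median over all genes lay 0.16 higher in DWYG-H. For 43 of 44 ribosomal protein genes both DWYG-H values were also higher, with 0 called. The cell cycle genes summed to 77.8 and 65.0 FPKM in control and 189 and 131 in DWYG-H. DWYG-H 1 thus held more of these transcripts than DWYG-H 2. Mki67, a protein of dividing cells, stood at 0.44 and 0.13 FPKM in control and 3.84 and 1.6 in DWYG-H, a log2 fold change of 3.08 (SE 0.58, adjusted p = 0.02). Birc5, survivin, stood at 0.76 and 0.64 FPKM against 8.30 and 4.94 (log2 fold change 2.80, SE 0.39, adjusted p = 0.00755), and Top2a, topoisomerase II alpha, at 0.73 and 0.35 against 4.46 and 2.65 (log2 fold change 2.51, SE 0.40, adjusted p = 0.0119). Of the 21 called genes 0 were called in all 4 fits. Without control 2 the adjusted p was 0.124 for Mki67, 0.077 for Birc5 and 0.0989 for Top2a. Without control 1 it was 0.0516 for Mki67 and 0.0539 for Birc5, and without DWYG-H 1 it was 0.0871 for Mki67 and 0.0553 for Top2a.

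Targets of p53, the transcription factor that answers DNA damage, were in part higher. Of 26 tested 7 rose and 0 fell (26.9%, median 0.77). Cdkn1a, the cell cycle inhibitor p21, stood at 2.16 and 1.34 FPKM in control and 59.32 and 27.54 in DWYG-H (log2 fold change 4.43, SE 0.89, adjusted p = 0.0248). Psrc1, a spindle protein, stood at 0.08 FPKM in both control livers and 6.67 and 3.95 in DWYG-H (log2 fold change 5.77, SE 0.72, adjusted p = 0.00527). Eda2r, a receptor of the tumour necrosis factor family, stood at 0.11 and 0.07 FPKM against 2.16 and 1.11 (log2 fold change 3.78, SE 0.51, adjusted p = 0.0071). Without control 1 the adjusted p was 0.122 for Cdkn1a, 0.0563 for Psrc1 and 0.0539 for Eda2r, and without control 2 it was 0.179, 0.0648 and 0.0741. Cdkn1a also lost its call without DWYG-H 1, at 0.0928.

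Some acute phase and interferon genes passed the test. Of 27 tested acute phase genes 4 rose and 0 fell (14.8%, median 0.65), and DESeq2 called 13 higher. DESeq2 also called more than edgeR over all genes tested, 1094 higher and 291 lower beside 765 and 127. In FPKM, both DWYG-H values lay above both control values for 22 of the acute phase genes, and for 43 of 44 ribosomal protein genes. Over all genes tested, 57.2% did not overlap in either direction. Il1rn, the interleukin 1 receptor antagonist, stood at 0.91 and 0.95 FPKM in control and 22.5 and 22.48 in DWYG-H (log2 fold change 4.39, SE 0.60, adjusted p = 0.00716, 0.0662 without control 1 and 0.0741 without control 2). Mt1, a metal-binding protein, stood at 9.44 and 7.47 FPKM against 382.11 and 102.96 (log2 fold change 4.68, SE 0.83, adjusted p = 0.0163, 0.102 without control 1 and 0.133 without control 2). Saa1, serum amyloid A, varied from liver to liver, at 96.83 and 50.74 FPKM in control, 336.66 and 968.59 in DWYG-H and 2917.33 and 161.8 in model (adjusted p = 0.147 against control). Of 28 tested interferon response genes 5 rose and 0 fell (17.9%, median 0.64), among them Ifi44 at 1.07 and 1.08 FPKM against 4.86 and 3.93 (adjusted p = 0.00752, 0.0645 without control 1 and 0.0728 without control 2). Of 11 tested MHC class II presentation genes 2 rose and 0 fell (18.2%, median 0.97, and 0.20 without DWYG-H 2). Their sum was 306 and 280 FPKM in control, 399 in DWYG-H 1 and 878 in DWYG-H 2. Of 6 tested T and NK cell markers 0 passed in edgeR (2 at an unadjusted p under 0.05, median 1.38, 0.73 without DWYG-H 2 and 2.24 without control 1), and DESeq2 also called 0. Their sum was 17.5 and 6.72 FPKM in control, 19.3 in DWYG-H 1 and 60 in DWYG-H 2, so that the lymphocyte and MHC class II values moved together in 1 liver. The part of lymphocytes in the other results was not tested. Of 6 tested B and plasma cell markers 2 rose and 0 fell, Jchain (4.10 and 1.33 FPKM against 16.66 and 23.81, adjusted p = 0.0105, called in all 4 fits) and Mzb1 (0.48 and 0.10 against 1.80 and 3.88). Mzb1 had an adjusted p of 0.0359, and of 0.0882 without control 1, 0.204 without control 2 and 0.155 without DWYG-H 2. Derl3, an endoplasmic reticulum protein of secretory cells on the same list, lay lower without overlap (2.85 and 8.74 FPKM against 2.03 and 2.39, log2 fold change -1.62, adjusted p = 0.146), and DESeq2 called 2 members higher and 1 lower.

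Oxidative stress genes changed in both directions. Of 39 tested NRF2 targets and glutathione S-transferases 10 rose and 1 fell (28.2%, median 0.31). NRF2 is the transcription factor that switches on glutathione and NADPH supply. Gsta1, a transferase induced by electrophiles, stood at 2.10 and 0.81 FPKM in control and 36.49 and 43.29 in DWYG-H (log2 fold change 4.54, SE 0.46, adjusted p = 0.00274, called in all 4 fits). Its estimated counts may hold reads of near-identical copies and are uncertain. G6pdx, which makes NADPH, stood at 2.66 and 2.18 FPKM against 14.36 and 12.58 (log2 fold change 2.27, SE 0.30, adjusted p = 0.00664, 0.0539 without control 1 and 0.074 without control 2). The member that fell was Gstp1, at 6950.5 and 7069.17 FPKM against 2840.77 and 3452.6 (log2 fold change -1.37, SE 0.22, adjusted p = 0.0117). It is also a male-biased gene, and its adjusted p was 0.058 without control 1, 0.0862 without control 2 and 0.0794 without DWYG-H 1. Of 21 tested immediate early genes, which answer growth factor and stress signals within minutes, 5 rose and 0 fell (23.8%, median 1.15). Egr1, a zinc finger factor of this group, stood at 4.54 and 1.62 FPKM against 16.04 and 18.34 (adjusted p = 0.0273). It was 0.14 without control 2, 0.0864 without DWYG-H 1 and 0.0944 without DWYG-H 2.

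The title of the study names YAP, the coactivator that the Hippo kinases keep out of the nucleus by phosphorylation and that acts through TEAD factors, so the 2 best known YAP targets with a promoter in the RefSeq table are shown. Each line holds the 250 bases before the transcription start in GRCm38.p6, 5′ to 3′ on the strand of the gene, with the TEAD motif GGAATG (or CATTCC, its reverse complement) in capitals.
Ankrd1: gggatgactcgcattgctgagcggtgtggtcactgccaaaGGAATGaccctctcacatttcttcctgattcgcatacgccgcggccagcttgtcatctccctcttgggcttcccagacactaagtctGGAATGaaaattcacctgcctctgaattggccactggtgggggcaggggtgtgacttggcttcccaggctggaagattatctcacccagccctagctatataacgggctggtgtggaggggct
Ccn1: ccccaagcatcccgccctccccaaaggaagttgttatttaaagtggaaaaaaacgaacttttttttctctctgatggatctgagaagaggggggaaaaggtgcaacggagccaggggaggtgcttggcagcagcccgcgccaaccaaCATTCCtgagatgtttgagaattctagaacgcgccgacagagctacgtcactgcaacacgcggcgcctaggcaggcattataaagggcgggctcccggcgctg
The Ankrd1 window is chr19:36119845-36120094 on the minus strand, with 2 matches that begin 210 and 123 bases before the start. The Ccn1 window is chr3:145649986-145650235 on the minus strand, with 1 match that begins 103 bases before the start. Of 18 promoter windows that were found for 16 of the 20 tested YAP/TAZ targets, 33.3% held a match on either strand, beside 12.6% of 32851 mouse windows of the same length. A match describes letters in the window and not a site in use.

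Some YAP/TAZ targets passed the test, while the share for genes of the pathway itself lay near the 7.69% over all genes tested. Of 20 tested YAP/TAZ targets 3 rose and 1 fell (20.0%, median 0.15). Ankrd1, a muscle ankyrin repeat protein, stood at 0.35 and 0.20 FPKM in control and 1.04 and 1.42 in DWYG-H (log2 fold change 1.95, SE 0.51, adjusted p = 0.0601), and at 3.51 and 6.31 in model. Ccn1, a matricellular protein, stood at 4.05 and 16.69 FPKM in control and 3.29 and 5.56 in DWYG-H, which overlapped (adjusted p = 0.191). Ccn2, connective tissue growth factor, stood at 0.72 and 3.44 FPKM against 7.34 and 4.42 (adjusted p = 0.418). The 3 members that rose were Ccdc80, Myof and Fstl1, a matrix protein, a membrane repair protein and a secreted glycoprotein. Ccdc80 stood at 3.32 and 3.55 FPKM against 15.22 and 12.28 (log2 fold change 1.79, SE 0.19, adjusted p = 0.00319, called in all 4 fits). Myof stood at 0.48 and 0.5 FPKM against 1.87 and 2.27 (adjusted p = 0.00406, and 0.0542 without control 2), and Fstl1 at 1.18 and 1.44 against 4.61 and 5.31 (adjusted p = 0.0111, 0.08 without control 1 and 0.0706 without control 2). Wwc1, an upstream Hippo regulator that is itself a target, fell from 23.04 and 19.6 FPKM to 14.55 and 16.38 (adjusted p = 0.0258, and up to 0.153 in the 4 fits, called in 0 of them). Of 25 tested genes for YAP, TAZ, the TEADs and the Hippo kinases 1 rose and 1 fell (8.00%, median 0.08). Yap1 itself stood at 21.98 and 21.51 FPKM in control and 21.87 and 21.96 in DWYG-H (log2 fold change -0.20, SE 0.14, adjusted p = 0.439). Wwtr1, which encodes TAZ, stood at 4.03 and 4.57 FPKM against 7.77 and 6.38 (adjusted p = 0.121). RNA levels do not measure the phosphorylation or location of YAP.

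Most of the largest decreases were in Mup genes, and most tested genes that male liver makes more of than female liver were lower. Of 33 tested male-biased genes 21 fell and 0 rose (63.6%, median -1.64), 8 of them called in all 4 fits. Hsd3b5, a steroid dehydrogenase of male hepatocytes, stood at 241.39 and 170.84 FPKM in control and 3.34 and 4.49 in DWYG-H (log2 fold change -5.92, SE 0.29, adjusted p = 4.0e-04). Ugt2b38, a glucuronosyltransferase, stood at 32.01 and 31.1 FPKM against 2.45 and 1.43 (log2 fold change -4.24, SE 0.35, adjusted p = 0.00196). Cyp4a12a, a fatty acid hydroxylase, stood at 147.21 and 140.42 FPKM against 33.07 and 36.06 (log2 fold change -2.27, SE 0.18, adjusted p = 0.00183). Slco1a1, an uptake transporter for organic anions, stood at 170.27 and 153.44 FPKM against 18.82 and 22.72 (log2 fold change -3.17, SE 0.40, adjusted p = 0.00533). These 4 genes were called in all 4 fits. Among the Mup genes, which encode pheromone-binding proteins of urine, Mup15 stood at 11883.01 and 16273.86 FPKM against 26.17 and 30.58 (log2 fold change -9.18, SE 0.97, adjusted p = 0.00313). Mup11, Mup12, Mup16, Mup17, Mup18 and Mup19 fell by 4.93 to 8.73 on the log2 scale, and these 6 and Mup15 were called in all 4 fits. Of the Mup genes named here, Mup1, Mup13, Mup16, Mup18 and Mup19 were not on the male-biased list. Mup13 had 171 reads in control and 0 in DWYG-H, at least 57.8-fold lower (adjusted p = 0.0134, and up to 0.0847 in the 4 fits, called in 0 of them). Mup1 and Mup7 fell by 5.71 and 4.79 on the log2 scale. Mup1 lost its call without control 2, DWYG-H 1 and DWYG-H 2 (adjusted p up to 0.0695), and Mup7 in each of the 4 fits (up to 0.125). The Mup genes are near-identical copies, so the split of reads between them is uncertain. Fitm1, a lipid droplet protein that was not on the list either, stood at 25.69 and 30.91 FPKM against 1.39 and 0.82 (log2 fold change -4.89, SE 0.43, adjusted p = 0.00223, called in all 4 fits).

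Some female-biased genes were higher in high-dose livers, with 50% called higher beside 6.59% of all genes tested. Of 20 tested 10 rose and 0 fell (median 2.39), 3 of them called in all 4 fits. Cyp2b9, a female-specific cytochrome P450, stood at 0.14 and 0.04 FPKM in control and 58.74 and 37.34 in DWYG-H (log2 fold change 8.79, SE 1.04, adjusted p = 0.00407, and 0.0616 without control 2). Cyp2a4, a testosterone hydroxylase, had 1 read in control and 18873 in DWYG-H, a ratio of 18647 (3346 to 736565), with an adjusted p of 0.00123 and a call in all 4 fits. Cyp2a4 and its close copy in the genome can trade reads, so its level is uncertain. The other members called in all 4 fits were Prom1 (0.34 and 0.14 FPKM against 8.13 and 8.61) and Atp6v0d2 (0.13 and 0.26 against 2.26 and 2.86), which progenitor cells and macrophages respectively make too. Prom1 was also on the oncofetal list and Atp6v0d2 on the macrophage list. For 3 female-biased genes both DWYG-H values lay under both control values without a call, with a log2 fold change down to -2.25. For 15 both DWYG-H values lay above both control values. Over all genes tested, 57.2% did not overlap in either direction. DESeq2 called 12 female-biased genes higher and 1 lower. The list summed to 431 and 976 FPKM in control and 1152 and 711 in DWYG-H, which overlapped. Of 18 tested genes of the growth hormone axis, which sets both programmes, 1 rose and 0 fell (5.56%, median -0.24, 0.25 on the TPM scale and 0.03 without control 1). That gene was Igfbp1, an insulin-like growth factor binding protein that also answers fasting and stress, at 5.41 and 1.64 FPKM against 618.91 and 385.82 (log2 fold change 6.97, SE 0.98, adjusted p = 0.00755). It was 0.0509 without control 1 and 0.0741 without control 2. Igf1, the main target of growth hormone, stood at 102.01 and 84.5 FPKM against 67.75 and 67.92 (adjusted p = 0.226).

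Of the genes that mark the zones of the liver lobule, some pericentral and few periportal ones passed the test. Of 28 tested pericentral genes 2 rose and 3 fell (17.9%, median -0.60), and DESeq2 called 2 higher and 9 lower. Its calls over all genes tested were 1094 higher and 291 lower, beside 765 and 127 in edgeR. Cyp2e1, the enzyme that activates CCl4, stood at 4614.81 and 5500.18 FPKM in control and 2169.3 and 2354.56 in DWYG-H (log2 fold change -1.38, SE 0.38, adjusted p = 0.0688). Glul, glutamine synthetase, stood at 448.46 and 398.74 FPKM against 91.9 and 200.51 (adjusted p = 0.0676). Both genes were lower in both treated livers without passing the test. Slc1a2, a glutamate transporter of the same cells, fell from 36.59 and 32.5 FPKM to 3.25 and 7.36 (log2 fold change -2.79, SE 0.50, adjusted p = 0.0164, and up to 0.0972 in the 4 fits, called in 0 of them). Of 35 tested periportal genes 2 rose and 0 fell (5.71%, median 0.02), G6pc, which releases glucose (56.17 and 69.19 FPKM against 236.35 and 239.33, adjusted p = 0.0247), and Sds, a serine dehydratase (63.95 and 58.13 against 119.01 and 143.01, adjusted p = 0.0412). Neither was called in any of the 4 fits, with adjusted p-values up to 0.145 and 0.222.

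Among lists of other hepatocyte functions the share that passed in edgeR ran from 0% to 16.0%, beside 7.69% of all genes tested. DESeq2 called more of these genes lower. DESeq2 also called more genes lower over all genes tested, 291 beside 127 in edgeR. Of 31 tested bile acid genes 1 rose and 2 fell (9.68%, median -0.25, and 0.23 on the TPM scale), the latter being Slco1a1 and Cyp7b1, an oxysterol hydroxylase. In DESeq2 3 bile acid genes were called higher and 5 lower. Cyp7b1 stood at 259.63 and 374.66 FPKM against 34.88 and 43.52 (log2 fold change -3.24, SE 0.51, adjusted p = 0.0113), with a call in 1 of the 4 fits and an adjusted p up to 0.0729. Of 50 tested P450, glucuronosyltransferase and sulfotransferase genes 4 rose and 4 fell (16.0%, median -0.37, and 0.10 on the TPM scale), and DESeq2 called 7 higher and 11 lower. Cyp2c67 stood at 215.3 and 178.13 FPKM against 54.26 and 62.72 (log2 fold change -1.96, SE 0.23, adjusted p = 0.00429, called in all 4 fits). Of 36 tested fatty acid oxidation genes 1 rose and 0 fell in edgeR (2.78%, median -0.55, and -0.07 on the TPM scale). An unadjusted p under 0.05 was reached by 17. DESeq2 called 1 of the 36 higher and 9 lower. For 21 both DWYG-H values lay under both control values, beside 57.2% of all genes tested whose libraries did not overlap in either direction. Of 25 cholesterol synthesis genes, 41 respiratory chain genes and 44 ribosomal protein genes, 0 passed in edgeR, with 5, 7 and 0 at an unadjusted p under 0.05. In DESeq2 4 cholesterol synthesis genes were called lower, and 0 of the other 2 lists. Their medians were -0.25, -0.32 and 0.19, and 0.32, 0.17 and 0.67 on the TPM scale. The cholesterol median was 0.17 without control 2.

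**Figure D3:**
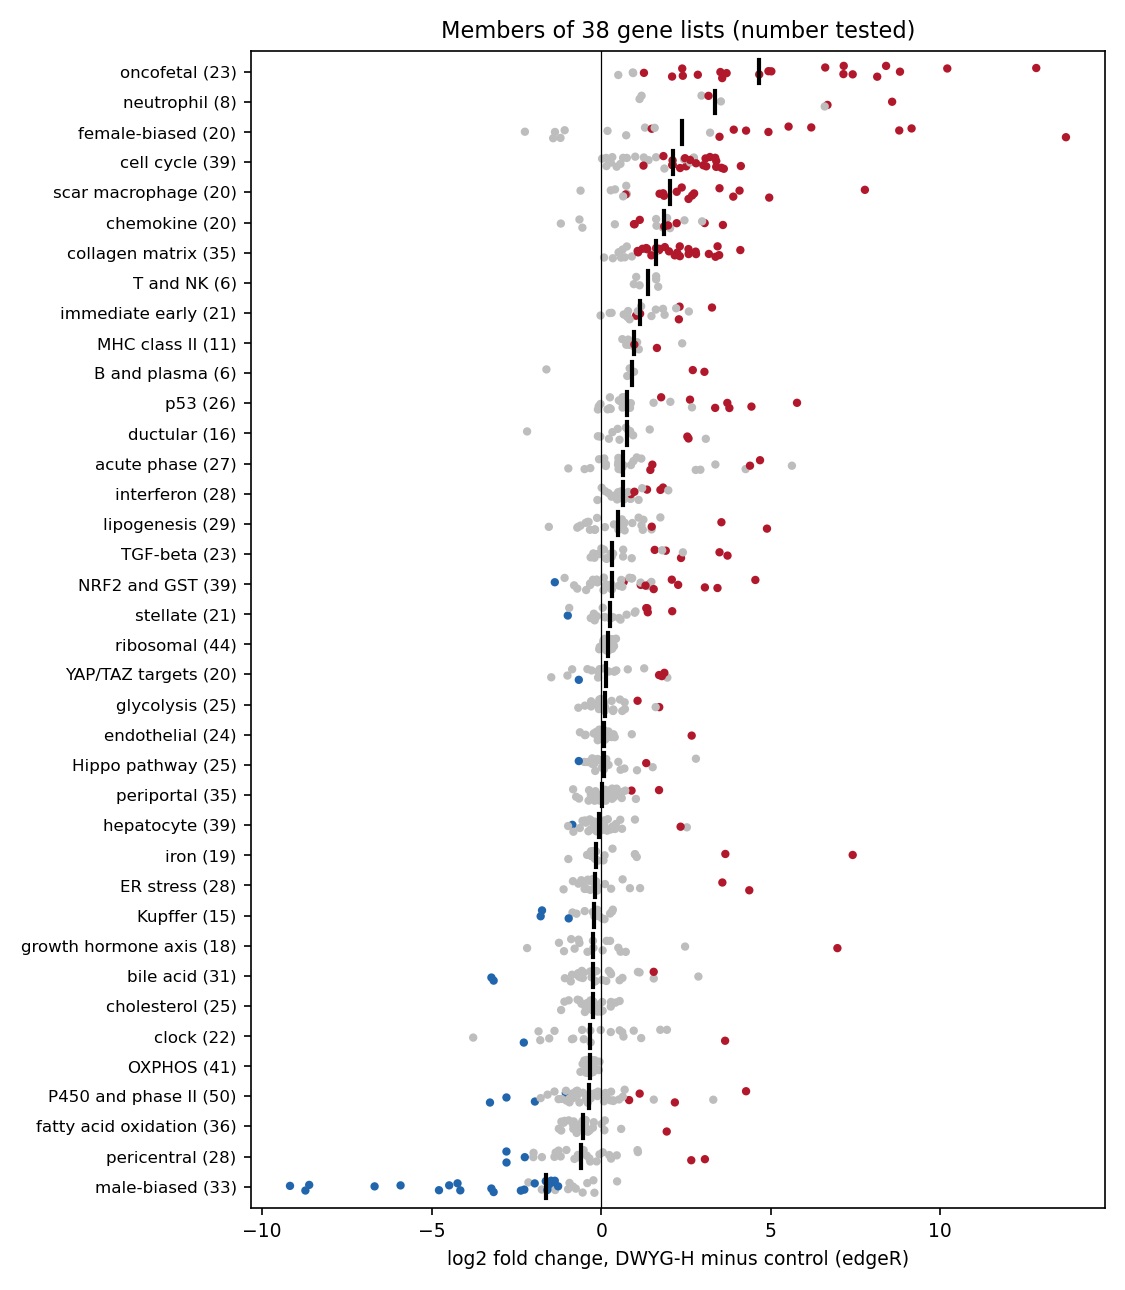
Log2 fold changes in DWYG-H against control (x axis) for each tested member of 38 gene lists (points, with the number tested in brackets), ordered by the list median (black bar). Red points passed the test as higher, blue points as lower and grey points did not pass; oncofetal genes have the highest median, 4.66, and male-biased genes the lowest, -1.64.

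High-dose livers were also set directly against the model livers, since the comparisons of each with control share the control libraries. In edgeR 0 of 11606 genes passed (0% called), with 985 genes at an unadjusted p under 0.05, of which 579 were lower in DWYG-H. The lowest adjusted p was 0.0562. DESeq2 called 120 genes, 38 higher and 82 lower in DWYG-H. Without model 1 edgeR called 7 genes, without model 2 it called 17, without DWYG-H 1 it called 1 and without DWYG-H 2 it called 0.

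The 6 genes lower in DWYG-H with the smallest p include genes of injured epithelium, and 0 passed. Ehf, an epithelial transcription factor, stood at 0.56 and 0.51 FPKM in DWYG-H, 2.94 and 2.46 in model and 0.24 and 0.23 in control (log2 fold change against model -2.29, adjusted p = 0.0562). Cd24a, a surface glycoprotein of progenitor and tumour cells, stood at 5.70 and 6.31 FPKM in DWYG-H, 19.63 and 17.63 in model and 2.44 and 1.90 in control (log2 fold change against model -1.57, adjusted p = 0.0562). Mmp7, matrilysin, made by injured duct epithelium, stood at 1.56 and 3.33 FPKM in DWYG-H, 17.12 and 19.59 in model and 0.09 in both controls (log2 fold change against model -2.85, adjusted p = 0.113). For these 3 genes the DWYG-H livers lay between the other groups without overlap. Against control, Cd24a was called (adjusted p = 0.00716, and 0.0741 without control 2), as was Mmp7 with 2 reads in control and 66 in DWYG-H, a ratio of 32.6 (8.68 to 275). Mmp7 had an adjusted p of 0.00752 against control, and of 0.0663 without control 1 and 0.0741 without control 2, while Ehf had 0.0711. Sprr1a stood at 18.42 and 17.88 FPKM in model beside 4.26 and 4.27 in DWYG-H, and Plat, tissue plasminogen activator, at 6.77 and 7.63 beside 2.44 and 2.63 (adjusted p = 0.25 for both). Gabrp, a GABA receptor subunit, stood at 0.14 and 0.08 FPKM in DWYG-H and 1.32 and 2.07 in model (adjusted p = 0.25).

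Among genes higher in DWYG-H than in model, Hsd3b5 stood at 3.34 and 4.49 FPKM beside 0.86 and 0.45 in model (log2 fold change 2.65, adjusted p = 0.113), far under the 241.39 and 170.84 of control. Pde9a, a cyclic GMP phosphodiesterase, stood at 12.6 and 14.25 FPKM in DWYG-H, 8.54 and 7.08 in model and 14.04 and 11.77 in control (adjusted p = 0.25). Ces1e, a carboxylesterase, stood at 57.4 and 61.23 FPKM in DWYG-H, 34.34 and 20.01 in model and 66.46 and 77.45 in control (adjusted p = 0.25). Aqp8, a water channel of hepatocyte membranes, stood at 103.27 and 135.84 FPKM in DWYG-H, 60.47 and 67.12 in model and 26.33 and 25.44 in control (adjusted p = 0.25 against model). Aqp8 was called against control (log2 fold change 1.99, SE 0.19, adjusted p = 0.00252, called in all 4 fits), while Pde9a and Ces1e were not (adjusted p 0.609 and 0.235). Zfp973, a zinc finger gene, was listed at 0 FPKM in both model livers and at 1.98 and 1.24 in DWYG-H and 1.93 and 1.27 in control.

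**Figure D4:**
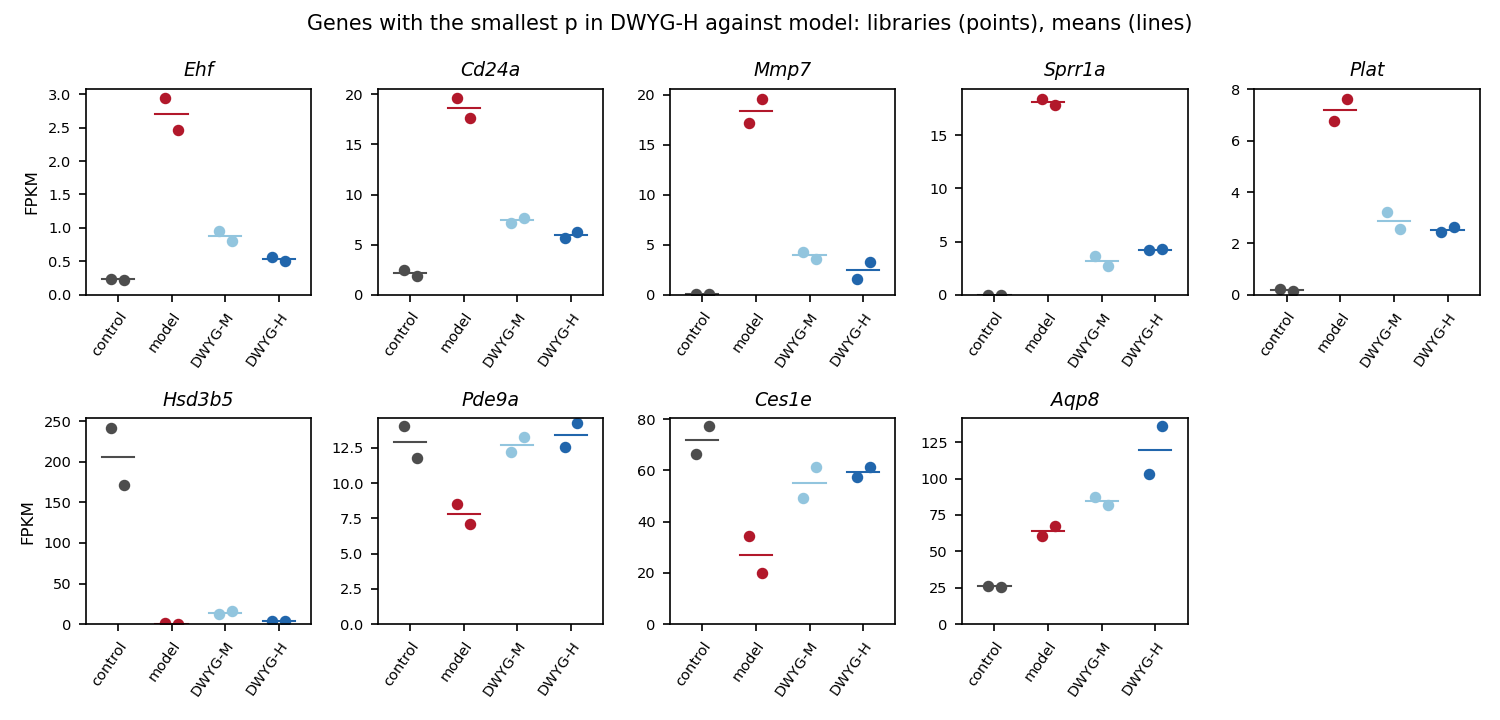
FPKM (linear axis from 0) of 9 of the 12 genes with the smallest p in DWYG-H against model, in 2 libraries per group (points) with the group mean (line). In the upper row DWYG-H lies under model and over control, in the lower row it lies over model, and Hsd3b5 remains far under control in each treated group.

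The lists were also set against model, where 0 members passed, with a median under 0 for 24 lists and over 0 for 14. Oncofetal genes had a median log2 difference of -0.91 in DWYG-H against model, negative for 23 of 23. Their medians against control were 4.66 for DWYG-H and 5.20 for model. The list holds Ehf, Cd24a, Mmp7, Sprr1a and Plat, named above for small p-values against model, so it partly restates them. Collagen and matrix genes had a median of -0.80 against model, negative for 34 of 35, with 1.62 and 2.41 against control. Ductular genes had -1.02, negative for 16 of 16, with 0.76 and 1.98 against control. Immediate early genes had -1.36, negative for 20 of 21, with 1.15 and 2.36 against control. YAP/TAZ targets had -0.71, negative for 18 of 20, with 0.15 and 0.74 against control. Lipid-associated macrophage genes had -0.30, cell cycle genes -0.57 and female-biased genes -0.38, and male-biased genes had 0.88, positive for 30 of 33, with -1.64 and -2.26 against control. Periportal genes had 0.50, positive for 32 of 35, with 0.02 and -0.47 against control. Respiratory chain genes had 0.28, positive for 41 of 41, with -0.32 and -0.59 against control. For several other lists the DWYG-H median lay farther from control than the model median did. These include B and plasma cell markers (0.90 and 0.73 against control) and clock genes (-0.32 and -0.17). T and NK cell markers had 0.90 against model, positive for 6 of 6, with 1.38 and 0.60 against control, and lipogenesis genes had 0.28, positive for 19 of 29, with 0.50 and -0.18. Against control the T and NK median fell to 0.73 without DWYG-H 2, and the lipogenesis median to -0.04 without DWYG-H 1. The median over all genes tested was -0.01. The members of a list share the same 4 livers and are not independent of each other.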

How the data were processed

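RNA of whole liver was sequenced in 8 libraries, 2 from each of 4 groups of mice. Libraries were made with the SMART-Seq mRNA LP kit, per the labels' protocols. Per the submitters' processing notes the genome was GRCm39. The sources used here do not give the aligner, the counting tool, or any use of strand. One deposited table of 17164 genes was used. The deposited read counts hold fractions, with 89.8% to 91.5% whole values per library, and the authors' values were therefore taken for estimated counts, as deposited. Its FPKM values, per the file headers, are scaled to gene length and depth, and its TPM values, per the file headers, to length and a fixed total. The 24 further columns (8 of normalized counts and 16 of group averages) were not used. Reads of near-identical, overlapping or antisense genes are uncertain.

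Estimated counts were rounded and tested with edgeR 4.0.16 (quasi-likelihood, TMM scaling) in 1 model of 4 groups over 8 libraries with 4 residual degrees of freedom, for genes that reached an FPKM of 1 in 2 or more libraries. Benjamini-Hochberg adjustment ran over the 11606 genes tested, and a call was an adjusted p under 0.05, from edgeR where no other tool is named. A gene with 0 reads in a group is given as a bound against 3 reads over the group, and one with 1 to 3 reads as a ratio with its exact 95% interval, which covers counting error only. The model was tested on simulated counts of DWYG-H against control. In these, it called 21% of the genes changed 2-fold and 89% of those changed 4-fold. Alternatives used DESeq2 1.42.0, limma 3.58.1 on log2(FPKM + 1), log2(FPKM + 0.1) and log2(TPM + 1), other scalings and filters, the 2 groups alone, a replicate block, and each library left out.

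The genes named are the 12 higher and 12 lower called genes of largest fold change (libraries not overlapping, mean FPKM of at least 5 in a group, no predicted genes or antigen receptor segments), the 3 markers, and genes among the 4 smallest p-values of each of 38 lists. For DWYG-H against model they are the 6 higher and 6 lower genes of smallest p, of which 1 is not reported here. The following genes lie outside this rule and were chosen after their values were seen: Yap1, Wwtr1, Ccn1, Ccn2, Ankrd1, Col1a1, Acta2, Mki67, Krt19, Epcam, Alb, Cyp2e1, Glul, Clec4f, C1qa, C1qb, C1qc, Saa1, Cdkn1a, Igf1 and Timp1. The comparison, lists (1064 entries, 976 tested) and rule were chosen with earlier results of these data known. Promoters are from RefSeq on GRCm38.p6, matched by gene ID, which is another build than that of the table, and no other coordinates are given.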

Additional observations from a re-analysis of the deposited data

How the results depend on the processing

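For DWYG-H against control, 892 genes were called. DESeq2 called 1385, limma on log2(TPM + 1) 3369, limma on log2(FPKM + 0.1) 1431, and edgeR with an FPKM of at least 5 called 454, with fewer genes tested. With 1 library left out, 77 to 423 were called, with fewer samples. The other counts lay between 856 and 1170, and all called genes with a value kept their direction in every setting. For DWYG-H against model, 0 were called, with 120 in DESeq2, 3 in limma on log2(FPKM + 1), 1 in limma on log2(TPM + 1), 4 without a filter and 0 to 17 with 1 library left out. The cause of the differences between tools was not tested. Among the genes named, 3 that did not pass changed sign: Yap1 (0.01, 0.28 and 0.01) and Pde9a (0.06, 0.31 and 0.06) in limma on log2(FPKM + 1), log2(TPM + 1) and log2(FPKM + 0.1), and Zfp973 in the same fits (0.00, 0.18 and 0.00) and with 1 library left out (-0.60 to 0.15). Replicate numbers are shared by separate mice, and same-numbered libraries deviated together at r = 0.046 (control and DWYG-H) and 0.078 (model and DWYG-H). With the replicate number as a replicate block, 856 and 0 genes were called. Depth leaves genes of under about 3 reads a group without a measurable fold.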

Other observations

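In 5 further lists the share of called genes lay near the 7.69% called over all genes tested, and single members are given as values. Of 29 tested lipogenesis and lipid droplet genes 3 rose and 0 fell (10.3%, median 0.50, but -0.04 without DWYG-H 1 and 0.04 without DWYG-H 2). Scd1, the stearoyl-CoA desaturase, stood at 142.11 and 100.91 FPKM in control, 506.95 and 2780.57 in DWYG-H and 467.35 and 473.77 in model, so that DWYG-H 2 stood above the other 5 of these 6 livers. Its log2 fold change against control was 3.54 (SE 0.71, adjusted p = 0.0244, 0.121 without control 1 and 0.181 without control 2). Pnpla3, a lipid droplet protein, stood at 0.11 and 0.04 FPKM in control, 3.03 and 2.60 in DWYG-H and 0.61 and 1.52 in model (log2 fold change against control 4.89, SE 0.63, adjusted p = 0.00591, and 0.0673 without control 2). Of 19 tested iron genes 2 rose and 0 fell (10.5%, median -0.15), Lcn2 and Hamp2, a hepcidin gene. Hamp2 stood at 9.60 and 8.06 FPKM in control, 69.67 and 186.81 in DWYG-H and 12.32 and 6.18 in model. Its adjusted p was 0.0486 against control, up to 0.249 with 1 library left out and called in 0 of those 4 fits, and 0.312 against model.

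Of 22 tested clock genes 1 rose and 1 fell (9.09%, median -0.32, 0.16 on the TPM scale and 0.43 without control 2), and DESeq2 called 2 higher and 5 lower. Among all genes tested, DESeq2 called 1094 higher and 291 lower. Npas2, a partner of BMAL1, stood at 0.41 and 0.08 FPKM in control and 3.35 and 3.91 in DWYG-H, and Nr1d1, the repressor REV-ERB alpha, at 20.83 and 30.55 FPKM against 5.60 and 6.75. Their adjusted p-values were 0.0201 and 0.035, up to 0.128 and 0.177 with 1 library left out, and neither was called in any of those 4 fits. In model the 2 genes stood at 2.41 and 1.2 FPKM and at 17.16 and 22.44 FPKM. The sources used here do not give the time of day at which mice were killed. Of 28 tested endoplasmic reticulum and amino acid stress genes 2 rose and 0 fell in edgeR (7.14%), with 2 higher and 2 lower in DESeq2. The 2 that rose were Phgdh and Psat1, both enzymes of serine synthesis. Phgdh stood at 0.29 and 0.15 FPKM in control and 5.54 and 5.04 in DWYG-H (adjusted p = 0.0394, up to 0.232 with 1 library left out and called in 0 of those 4 fits), and Psat1 at 0.90 and 0.75 FPKM against 14.95 and 7.67. Psat1 had an adjusted p of 0.0233, and of 0.125 without control 1, 0.162 without control 2 and 0.0947 without DWYG-H 1. Of 25 tested glycolysis genes 2 rose (8.00%, median 0.10). They were Pfkp, a phosphofructokinase (0.84 and 0.86 FPKM against 2.43 and 4.04), and Pkm, the pyruvate kinase of fetal liver and tumours (12.14 and 11.35 against 24.85 and 32.34). Pfkp had an adjusted p of 0.0133, with a call in 1 of the 4 fits and values up to 0.0978, and Pkm of 0.0255, with a call in 0 of them and values up to 0.162.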
